A study of Mus musculus with 4 samples.

Results

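The genes described here are arginase 1 and arginase 2 (Arg1, Arg2), tryptophan hydroxylase 1 (Tph1), and 6 genes of polyamine metabolism (Odc1, Srm, Sms, Amd1, Azin1 and Sat1). They were chosen by symbol, and all 9 were found once each among the 22558 genes of the count table. RNA was sequenced from group 2 innate lymphoid cells (ILC2s) sorted from the lungs of 2 wild-type (WT) and 2 ICAM-1 knockout (ICAM-1 KO) samples. All mice were 6 weeks old on a C57BL/6 background and had received 3 intranasal doses of 0.5 µg of recombinant mouse IL-33, so both groups hold activated cells and no unchallenged sample enters the comparison. The knockout was constitutive, so every cell of the animal carried it, and each library was a pool of 4 mice. P-values therefore measure the spread between pooled libraries.

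ILC2s are lymphocytes without antigen receptors that answer the alarmin IL-33 with type 2 cytokines, and Arg1 and Tph1 are among the metabolic enzymes they are known for. Arginase splits arginine into urea and ornithine. Ornithine decarboxylase (Odc1) turns ornithine into the diamine putrescine, and spermidine synthase (Srm) and spermine synthase (Sms) lengthen it stepwise with aminopropyl groups that S-adenosylmethionine decarboxylase (Amd1) supplies. Spermidine/spermine acetyltransferase (Sat1) marks polyamines for breakdown and export. Antizymes bind ornithine decarboxylase and send it to the proteasome, and the antizyme inhibitor (Azin1) takes the antizyme away. Tph1 hydroxylates tryptophan in the first and rate-limiting step of serotonin synthesis outside the brain.

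The targeted gene was looked at first. Icam1 had normalized counts of 85.18 and 83.31 in WT and of 97.63 and 110.0 in the pair labelled as ICAM-1 KO, and its log2 fold change of 0.33 did not pass the test (adjusted p = 0.0745). RNA of the gene was thus not called lower in the knockout libraries, and whether its transcripts came from the disrupted allele was not tested. For the protein, the paper reports from flow cytometry of lung ILC2s that the knockout mice lack ICAM-1. Here a normalized count is the deposited count plus 1, multiplied by 1 factor per library, and a gene was called higher or lower at an adjusted p under 0.05 in the quasi-likelihood test of edgeR, with p-values adjusted after Benjamini and Hochberg over 11711 genes. Total counts were between 24796148 and 28782471 per library.

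Of the 9 genes, 8 had enough counts for the test. Sat1 was higher in the ICAM-1 KO libraries, Arg1 and Srm were lower, and the other 5 were not called. Over all genes tested 8.8% were called higher and 4.97% lower. The 2 libraries of each group did not overlap for 5 of the 8 genes, which is close to the 59.5% of all tested genes without overlap, so the lack of overlap by itself says little. The median log2 fold change of the 8 genes was -0.17, beside 0.011 over all genes tested. In such bulk samples, fewer cells of a type and less RNA per cell cannot be told apart.

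**Figure D1:**
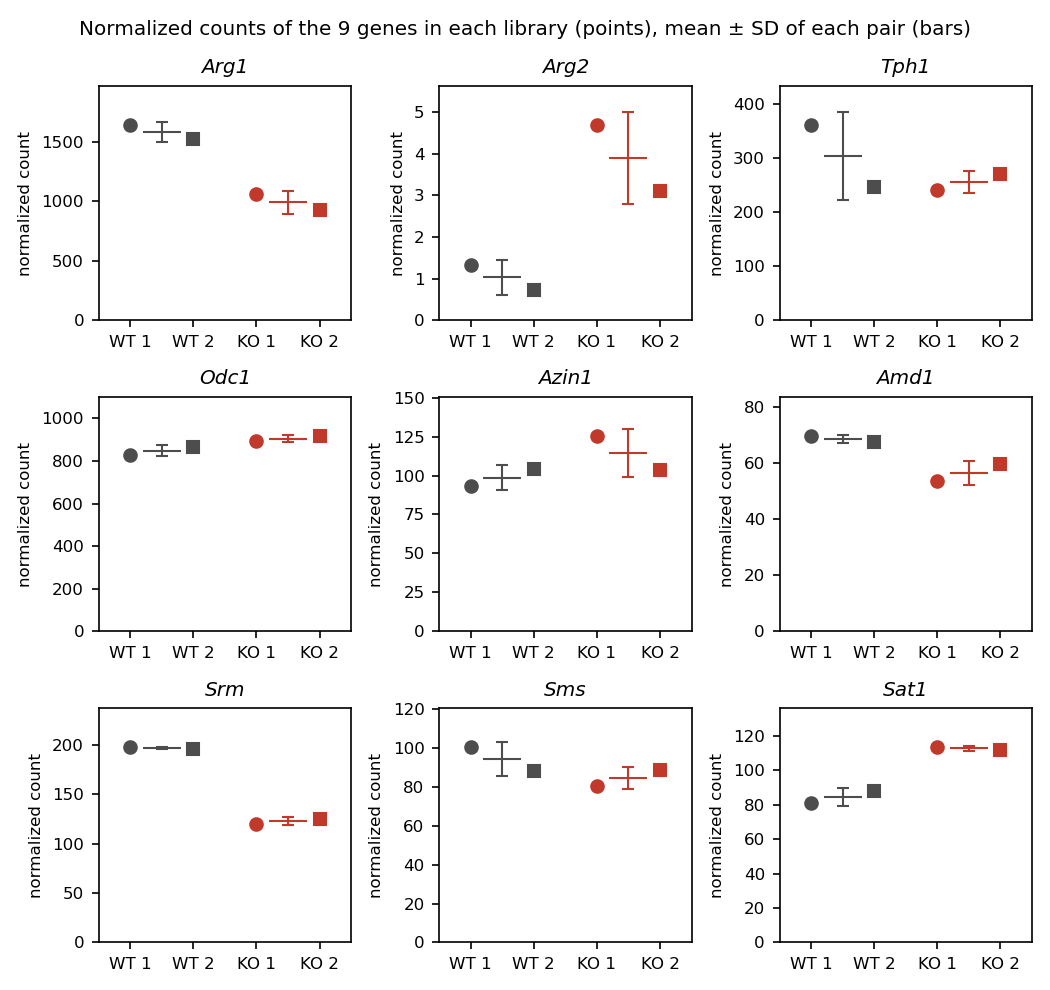
Normalized counts (vertical axes, each from 0) of the 9 genes in the WT (grey) and ICAM-1 KO (red) libraries, with the mean ± SD of each pair of libraries. Arg1, Srm and Amd1 were lower in both ICAM-1 KO libraries than in either WT library, Arg2, Odc1 and Sat1 were higher in both, and the pairs overlapped for Tph1, Azin1 and Sms.

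Arg1 encodes the cytosolic arginase and lies on the minus strand of chromosome 10 (chr10:24915221-24927484, mm10). Its deposited counts were 49707 and 48128 in the WT libraries and 30565 and 29019 in the ICAM-1 KO libraries. The normalized counts were 1641 and 1524 in WT and 1061 and 924.6 in ICAM-1 KO, with both knockout libraries below both WT libraries. The mean thus went from 1583 ± 82.7 to 992.8 ± 96.4 (SD, n = 2 each) and fell by 37.3%. The log2 fold change was -0.65 (SE 0.093, 95% confidence interval -0.86 to -0.44, adjusted p = 0.00371). The call was kept without any single library, with log2 fold changes between -0.74 and -0.56, and was lost with limma (adjusted p = 0.0771).

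Arg2 encodes the mitochondrial arginase (chr12:79130777-79156301, plus strand, mm10). Only 39 and 22 counts were found in WT and 134 and 97 in ICAM-1 KO. The normalized counts of 1.33 and 0.7341 in WT and of 4.685 and 3.114 in ICAM-1 KO did not overlap. They summed to 9.86 over the 4 libraries, just under the minimum of 10, so Arg2 did not enter the test. The ratio of the group means was 3.78 (log2 ratio 1.92). Where Arg2 was tested under other filters its call depended on the filter, with adjusted p = 0.0307 for at least 10 counts in every library, 0.0612 with filterByExpr, edgeR's own filter, and 0.106 without a filter. The locus overlaps Vti1b on the other strand, which had a mean normalized count of 72.0, and without a stated strand rule reads of the shared stretch cannot be assigned with certainty.

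Both arginases hold a manganese cluster in the active site, and a pair of its aspartates is encoded in exon 7 of either gene. Their coding sequences (GENCODE M21 transcripts) have 323 and 354 codons and were identical at 57% of aligned positions, with no identical run longer than 12 bases. The stretch around the aspartate codons, which stand in capitals (codons 232 and 234 of Arg1, 251 and 253 of Arg2), shows how far the 2 differ even at a conserved site. The Arg1 stretch lies at chr10:24916104-24916151 on the minus strand and the Arg2 stretch at chr12:79151935-79151982 on the plus strand (GRCm38).
Arg1: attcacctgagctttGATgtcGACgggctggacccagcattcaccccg
Arg2: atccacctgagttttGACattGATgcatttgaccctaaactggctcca

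Per length, Arg1 far exceeded Arg2 in every library. On the RPKM scale (reads scaled for the length of all exons and for library size), Arg1 stood at 823 and 765 in WT and at 538 and 476 in ICAM-1 KO, which ranked it 50th and 58th, then 75th and 102nd, of 22352 genes with a length. Arg2 stood at 1.02 and 0.55 in WT and at 3.68 and 2.48 in ICAM-1 KO on the same scale. The ratio of Arg1 to Arg2 was 811 and 1390 in WT and 146 and 192 in ICAM-1 KO. Arginase transcripts were thus almost all Arg1 in both genotypes, with a lower ratio in both knockout libraries.

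Tph1 (chr7:46644641-46672537, minus strand, mm10) had 10929 and 7765 counts in WT and 6959 and 8493 in ICAM-1 KO. The normalized counts were 360.9 and 245.9 in WT and 241.6 and 270.6 in ICAM-1 KO, so the WT libraries lay far apart and the second fell between the 2 knockout libraries. This came to a log2 fold change of -0.22 (SE 0.16, 95% confidence interval -0.58 to 0.14, adjusted p = 0.399). Without WT replicate 1 it was 0.09, so even the direction rested on that library. The interval spans both directions, and a difference in Tph1 was not detectable with these 2 pools per group.

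Odc1 (chr12:17544794-17551505, plus strand, mm10), the first committed enzyme of polyamine synthesis, varied little between libraries. Its normalized counts were 828.8 and 865.2 in WT and 891.7 and 916.6 in ICAM-1 KO. Both knockout libraries were above both WT libraries, but by little: the log2 fold change was 0.12 (SE 0.0805, 95% confidence interval -0.06 to 0.30, adjusted p = 0.348). Azin1 (chr15:38487427-38519266, minus strand, mm10), the inhibitor that protects ornithine decarboxylase from antizyme, had normalized counts of 92.98 and 104.1 in WT and of 125.3 and 103.5 in ICAM-1 KO. These overlapped, and the log2 fold change of 0.24 did not pass the test (SE 0.118, 95% confidence interval -0.03 to 0.51, adjusted p = 0.208).

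Srm (chr4:148591503-148594993, plus strand, mm10) makes spermidine from putrescine. Its normalized counts were 197.7 and 196.1 in WT and 119.6 and 125.3 in ICAM-1 KO, so the pairs were tight and well apart. The mean went from 196.9 ± 1.12 to 122.5 ± 4.03 (SD, n = 2 each) and fell by 37.8%. The log2 fold change was -0.66 (SE 0.0899, 95% confidence interval -0.86 to -0.45, adjusted p = 0.00306), much like the value of Arg1. Srm kept its call without any single library and lost it with limma (adjusted p = 0.058).

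Amd1 (chr10:40287458-40302186, minus strand, mm10), which makes the aminopropyl donor, had normalized counts of 69.68 and 67.63 in WT and of 53.56 and 59.62 in ICAM-1 KO. Both knockout libraries were below both WT libraries, yet the log2 fold change of -0.25 did not pass the test (SE 0.117, 95% confidence interval -0.52 to 0.01, adjusted p = 0.188). The single-exon copy Amd2 differs from Amd1 at 1 of 1002 coding bases and at 28 of 3218 aligned transcript positions. Its deposited counts were 3.15% to 4.84% of those of Amd1. With transcripts this alike, the split of reads between them is uncertain. The coding base that differs, G796C counted from the first base of the start codon, stands in capitals below. The Amd1 stretch is in exon 7 at chr10:40290166-40290206 and the Amd2 stretch at chr10:35710744-35710784, both on the minus strand (GRCm38).
Amd1: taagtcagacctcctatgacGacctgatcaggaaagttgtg
Amd2: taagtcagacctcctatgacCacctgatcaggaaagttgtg

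Sms (chrX:157443855-157492287, minus strand, mm10), which turns spermidine into spermine, had normalized counts of 100.5 and 88.2 in WT and of 80.52 and 88.63 in ICAM-1 KO. The pairs overlapped, with a log2 fold change of -0.13 (SE 0.114, 95% confidence interval -0.39 to 0.13, adjusted p = 0.487). The annotated copy Sms-ps is identical to part of the Sms transcript over all 1101 of its bases, and it held counts equal to 22.3% to 29.6% of those of Sms, so the value of Sms depends on how reads were divided. The ratio of Srm to Sms, per length, was 7.39 and 8.36 in WT and 5.58 and 5.31 in ICAM-1 KO, so spermidine synthase RNA stayed well above spermine synthase RNA in every library.

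Sat1 (chrX:155213132-155216449, minus strand, mm10), the rate-limiting enzyme of polyamine breakdown, was the only one of the 8 tested genes called higher. Its normalized counts were 80.82 and 88.13 in WT and 113.5 and 111.8 in ICAM-1 KO, with both knockout libraries above both WT libraries. The mean went from 84.47 ± 5.17 to 112.7 ± 1.21 (SD, n = 2 each), a rise of 33.4%. The log2 fold change was 0.44 (SE 0.1, 95% confidence interval 0.21 to 0.67, adjusted p = 0.0228). This call was the least stable of the 3: it was lost without each of the 4 libraries in turn (log2 fold change 0.38 and adjusted p = 0.1 without WT replicate 1, 0.51 and 0.0543 without WT replicate 2, 0.44 and 0.0525 without ICAM-1 KO replicate 1, 0.44 and 0.0556 without ICAM-1 KO replicate 2), and with limma (adjusted p = 0.131). Within a library, the ratio of Sat1 to Srm per length was 0.236 and 0.259 in WT and 0.547 and 0.514 in ICAM-1 KO. These genes were called in opposite directions, so their ratio adds no separate result. The other synthesis genes, Odc1, Amd1 and Sms, were not called.

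**Figure D2:**
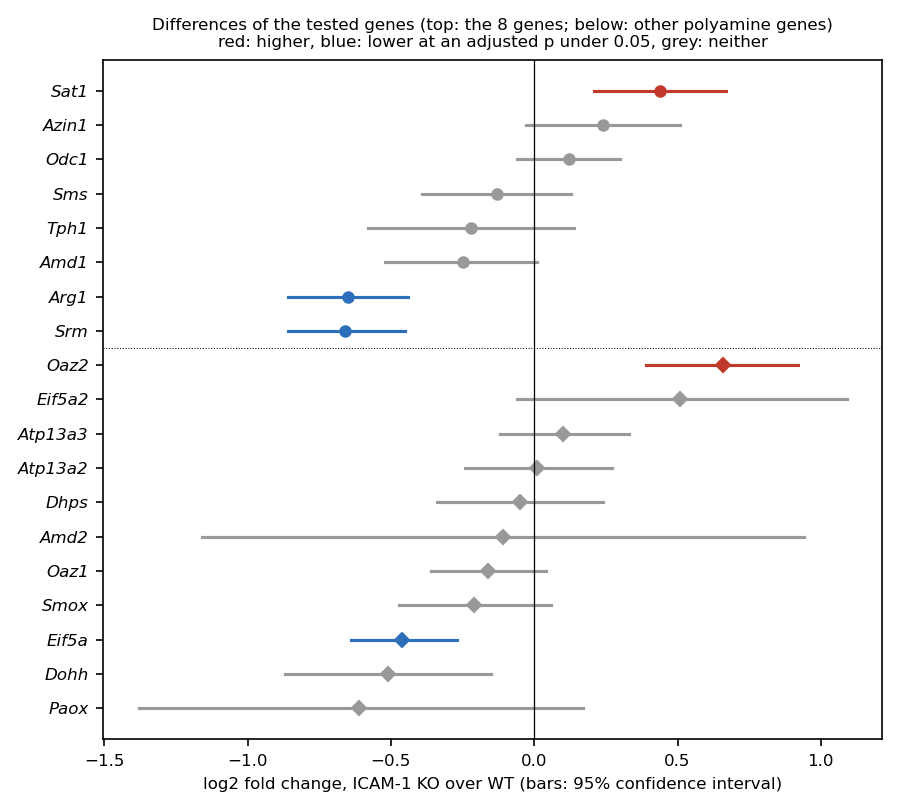
Log2 fold change, ICAM-1 KO over WT (horizontal axis), with its 95% confidence interval for the 8 tested genes (circles) and for 11 other polyamine genes (diamonds). Srm, Arg1 and Eif5a lie below 0 and Sat1 and Oaz2 above 0 with adjusted p under 0.05, and the remaining intervals are grey.

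The order of the levels per length was nearly the same in both genotypes. In WT it ran from Arg1 through Odc1 (272 and 284 RPKM), Srm (138 and 137), Tph1 (65.4 and 44.5), Sat1 (32.6 and 35.5) and Amd1 (22 and 21.3) to Azin1 (16.6 and 18.6) and Sms (18.7 and 16.4), with Arg2 last. Azin1 and Sms overlapped and could not be ordered. In ICAM-1 KO, Tph1 (44.2 and 50.3) and Sat1 (46.3 and 46.2) overlapped. Azin1 (22.6 and 19) and Amd1 (17.1 and 19.3) overlapped as well. With the longest transcript as the length in place of all exons, the ICAM-1 KO mean of Sat1 (94.9) came above that of Tph1 (63.9), and that of Sms (25.9) above that of Amd1 (20.1). In WT the mean of Sms (28.4) then also came above those of Amd1 (23.9) and Azin1 (22.6), so the places of Sat1 and Sms depend on the length used.

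**Figure D3:**
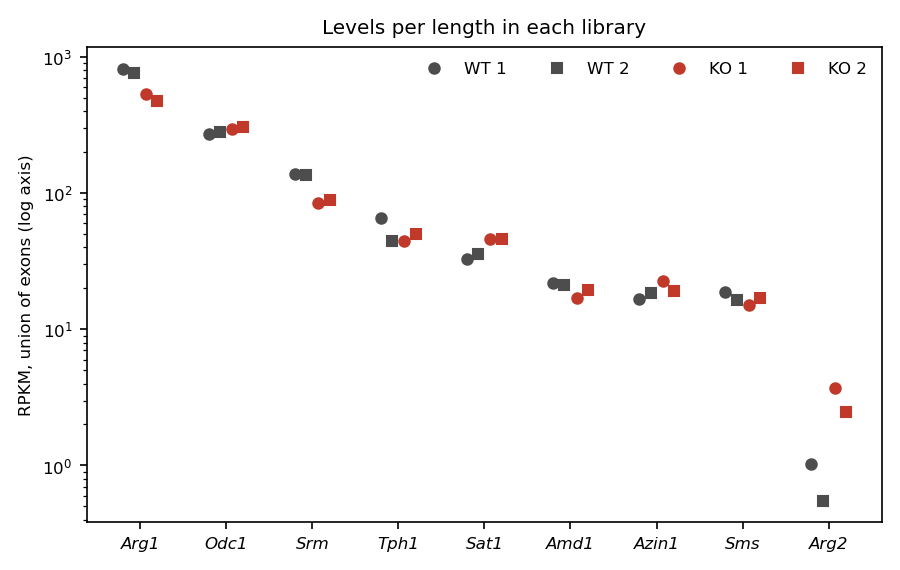
Levels per length, in RPKM on a log axis, of the 9 genes ordered by their WT mean, for the 2 WT (grey) and 2 ICAM-1 KO (red) libraries. Arg1 stood between 476 and 823 and Arg2 between 0.55 and 3.68, with the polyamine genes and Tph1 in between.

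The genes whose profile over the 4 libraries was most like that of Arg1, Tph1 and Odc1 were sought among 8918 genes whose normalized counts averaged 10 or more, by the root mean square difference of centred log2 normalized counts. For Arg1 they included Wdr73 (0.0197) and Slc19a1 (0.0242), the reduced folate carrier. For Tph1 they were Dyrk3 (0.0176), Pomgnt1 (0.0238) and Klf6 (0.0345), with Dyrk3 at normalized counts of 67.65 and 46.04 in WT and of 44.64 and 49.22 in ICAM-1 KO. For Odc1 they were Gas5 (0.00675), Xylt2 (0.00773) and Dguok (0.00791). With 4 libraries and 8918 genes, close profiles are easily found, and the measure describes these libraries only.

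The antizymes and the genes that use or break down polyamines were described from a list. Of 17 other polyamine genes listed, 11 were tested, with 1 higher, 1 lower and a median log2 fold change of -0.11. The shares over all genes tested were 8.8% higher and 4.97% lower. Oaz2, one of the antizymes, had normalized counts of 46.56 and 52.6 in WT and of 76.02 and 77.39 in ICAM-1 KO, with a log2 fold change of 0.66 (adjusted p = 0.00951, and 0.0524 without WT replicate 1). Oaz1, the main antizyme, had 945.6 and 859.6 in WT and 761.5 and 824.5 in ICAM-1 KO and was not called, at a log2 fold change of -0.16 (adjusted p = 0.271). Per length, the ratio of Oaz1 to Oaz2 was 23.8 and 19.1 in WT and 11.7 and 12.5 in ICAM-1 KO, and that of Odc1 to Oaz1 was 0.658 and 0.756, then 0.88 and 0.835. Oaz1 thus remained the dominant antizyme RNA in every library. Its copy Oaz1-ps held counts equal to 8.27% to 8.87% of those of Oaz1.

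Eif5a, the translation factor that carries hypusine, an amino acid made from spermidine, was the called gene of the list that was lower. Its normalized counts were 1898 and 1865 in WT and 1337 and 1354 in ICAM-1 KO. This came to a log2 fold change of -0.46 (SE 0.0803, adjusted p = 0.00893), with adjusted p = 0.0671 without WT replicate 1 and 0.0571 without WT replicate 2. The paralog Eif5a2 was far lower, at 8.386 and 9.025 in WT and 13.64 and 10.83 in ICAM-1 KO, and was not called (log2 fold change 0.51, adjusted p = 0.208). Neither hypusine enzyme was called: Dhps had a log2 fold change of -0.05 (adjusted p = 0.833) and Dohh one of -0.51 (adjusted p = 0.0653). The spermine oxidase Smox (-0.21, adjusted p = 0.268) and the polyamine transporters Atp13a3 (0.10, adjusted p = 0.536) and Atp13a2 (0.01, adjusted p = 0.957) were not called either. In both eIF5A genes codon 50, the lysine that spermidine modifies, is in capitals in the coding stretches below, read from transcripts whose 45 bases cross an exon junction (Eif5a between chr11:69918016 and 69919189, minus strand, and Eif5a2 between chr3:28782178 and 28782733, plus strand, GRCm38).
Eif5a: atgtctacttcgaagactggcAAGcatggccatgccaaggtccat
Eif5a2: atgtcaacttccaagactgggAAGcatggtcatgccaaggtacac

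The methionine cycle and salvage pathway supply and recover the aminopropyl donor. Of its 15 tested genes none was higher and 4 were lower, beside 8.8% and 4.97% over all genes tested. The median log2 fold change was -0.21. Mri1, a salvage enzyme, had normalized counts of 90.2 and 74.23 in WT and of 30.68 and 26.06 in ICAM-1 KO (log2 change -1.51, SE 0.147, adjusted p = 0.000674), and its call held without any single library. Mtap, which takes in the methylthioadenosine that spermidine and spermine synthases release, had 91.32 and 110.2 in WT and 68.03 and 62.79 in ICAM-1 KO (log2 change -0.60, adjusted p = 0.0153, and 0.0812 without WT replicate 2). Ahcy, which clears S-adenosylhomocysteine, had a log2 fold change of -0.46 (adjusted p = 0.0189), and Mat2a, which makes S-adenosylmethionine, one of -0.35 (adjusted p = 0.0409). The call of Ahcy was lost without WT replicate 1, WT replicate 2 or ICAM-1 KO replicate 2 (adjusted p = 0.0658, 0.0826 and 0.086), and that of Mat2a without any one of the libraries (adjusted p between 0.0545 and 0.191). The 3 most abundant genes not called were Ahcyl2 (log2 fold change -0.19), Got1 (0.06) and Mat2b (0.02).

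Among 19 tested genes of arginine supply and use, 3 were higher and none was lower, beside 8.8% and 4.97% over all genes tested. Their median was 0.14. Slc7a7, a cationic amino acid exporter subunit, went from 5.672 and 3.693 to 12.39 and 9.457 (log2 fold change 1.25, adjusted p = 0.0353). Its locus overlaps Oxa1l on the other strand, which had a mean normalized count of 34.4, so the assignment of reads from a shared stretch is uncertain. Gatm, of creatine synthesis, went from 15.15 and 14.98 to 21.52 and 27.46 (0.73, adjusted p = 0.0447). The calls of Slc7a7 and Gatm were lost without either WT library (adjusted p between 0.0595 and 0.151), that of Slc7a7 also without ICAM-1 KO replicate 1 (0.124) and that of Gatm without ICAM-1 KO replicate 2 (0.252). Slc3a2, the heavy chain of the amino acid transporters, had a log2 fold change of -0.03, Oat, which turns ornithine toward proline, one of -0.02, and Aldh18a1 one of -0.05, none of them called. Nos2, the inducible nitric oxide synthase that shares arginine with arginase, had normalized counts of at most 1.597 and was too low to test.

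Around Tph1, 17 serotonin and tryptophan genes were tested, of which 1 was higher and none was lower. This stands beside 8.8% and 4.97% over all genes tested, and the list median was 0.07. The called gene was Gch1, the first enzyme on the way to the cofactor that Tph1 needs, at 38.89 and 39.39 in WT and 50.75 and 56.84 in ICAM-1 KO (log2 change 0.49, adjusted p = 0.0396). Its call was lost without WT replicate 1, WT replicate 2 or ICAM-1 KO replicate 2 (adjusted p = 0.121, 0.114 and 0.204). Tph2 had no row, and Ddc, which turns the product of Tph1 into serotonin, had normalized counts between 0.6333 and 2.294, too low to test. The most abundant others, Slc7a8 (log2 fold change -0.32, adjusted p = 0.0943), Wars (-0.20, adjusted p = 0.193) and Slc7a5 (-0.31, adjusted p = 0.142), were not called.

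Of 16 genes listed as possible upstream regulators, 2 were higher and 3 were lower, beside 8.8% and 4.97% over all genes tested. Their median was 0.0. Pparg, a nuclear receptor of lipid metabolism, had normalized counts of 228.3 and 221.0 in WT and of 143.6 and 141.8 in ICAM-1 KO (log2 change -0.63, adjusted p = 0.00312), and kept its call without any single library. Myc, a known activator of Odc1 and Srm, had 88.05 and 78.72 in WT and 55.71 and 63.78 in ICAM-1 KO (-0.45, adjusted p = 0.0417), and Mxi1, a competitor of Myc for its partner Max, had 40.06 and 39.39, then 59.24 and 61.6 (0.63, adjusted p = 0.0119). Nfil3 was lower (-0.36, adjusted p = 0.0473) and the IL-4 receptor chain Il4ra higher (0.38, adjusted p = 0.0328). The calls of Myc and Nfil3 were lost without either WT library and without ICAM-1 KO replicate 1. Their log2 fold changes with 1 library left out were -0.57 to -0.35 and -0.46 to -0.25. That of Il4ra was lost without WT replicate 1 and without either ICAM-1 KO library (0.30 to 0.48). Mxi1 lost its call only without WT replicate 2 (0.59 to 0.67). The most abundant others were not called: Il1rl1, the IL-33 receptor (0.21), Rora (0.08) and Gata3 (-0.14). Polyamine genes also follow cell division, and of 15 proliferation genes none was higher and 2, Pcna (-0.35, adjusted p = 0.0337) and Rrm2 (-0.32, adjusted p = 0.0342), were lower. The share lower over all genes tested was 4.97%. Rrm2 lost its call without any one of the libraries (log2 fold change -0.35 to -0.29). Pcna lost it without either WT library and without ICAM-1 KO replicate 1 (-0.42 to -0.28 over all such fits). Top2a (-0.15), Mcm5 (-0.19) and Mcm2 (-0.14) were not called.

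**Figure D4:**
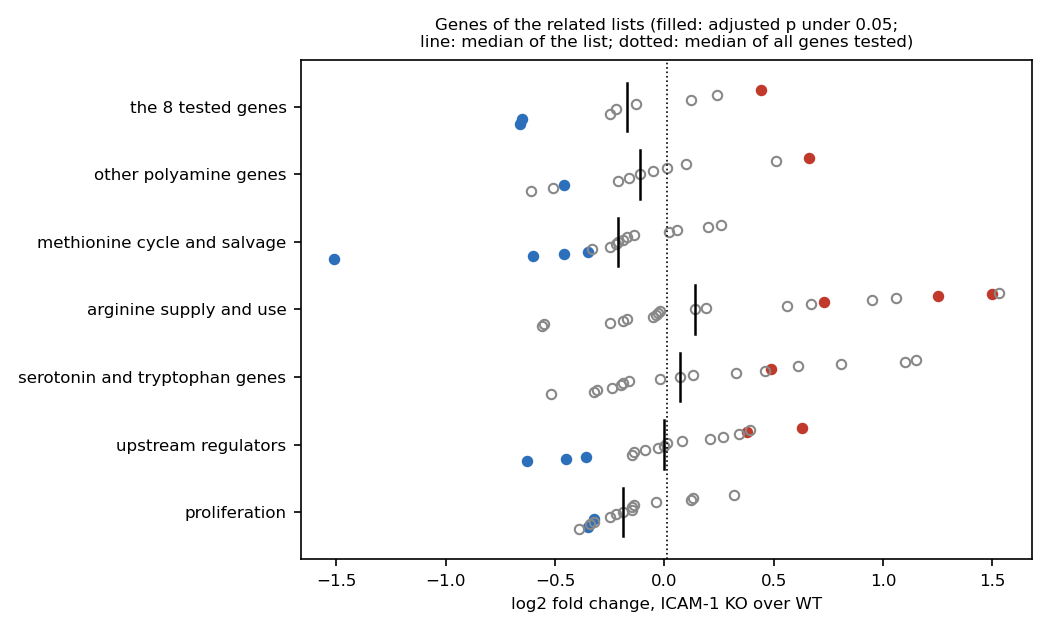
Log2 fold change, ICAM-1 KO over WT (horizontal axis), of every tested gene in 7 lists (rows). Filled points had an adjusted p under 0.05 (red higher, blue lower), the short lines are the list medians between -0.21 and 0.14, and the dotted line is the median of all genes tested, 0.011.

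Promoter windows of 250 bases before to 50 bases after the start (RefSeq, GRCm38.p6) were at hand for 5 of the 9 genes, with 7 windows in all for Tph1, Odc1, Amd1, Sms and Sat1. They were searched for CACGTG, the letters Myc and Max bind, which reads the same on both strands. It was found in 1 of the 7, an upstream window of Sms, and in 7.15% of the 32851 windows of all genes. The stretch is shown with the motif in capitals, 196 bases before the start (chrX:157492451-157492510, minus strand). A match describes the letters only, and Sms was not called. Bases outside these windows were not searched, and Arg1, Arg2, Srm and Azin1 had no window.
Sms: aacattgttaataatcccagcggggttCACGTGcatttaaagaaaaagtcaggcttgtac

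Markers of several cell types moved with genotype, although the gate left out cells with lineage markers of T cells, B cells, myeloid cells and, through FcεRIα, mast cells and basophils. The counts of called markers stand beside 8.8% higher and 4.97% lower over all genes tested. ILC2 genes were abundant in every library (summed normalized counts of 7619 and 8280 in WT and of 6880 and 7218 in ICAM-1 KO over 16 genes, led by Id2, Il5 and Ptprc, of which 2 were higher and 4 lower), and Ptgdr2 had no row. Of 20 tested macrophage and monocyte genes, a cell type that also expresses Arg1, 14 were higher and none lower, with sums of 1008 and 1224 in WT and 2262 and 3117 in ICAM-1 KO, while Arg1 was lower. The most abundant of the list were Chil3 and Lyz2, both higher, and Ccr2, which was not called (adjusted p = 0.0563), and none of that list was at 0 in all libraries. Of 16 mast cell and basophil genes, a source of Tph1 in other tissues, 4 were higher and none lower, with sums of 1787 and 1513 in WT and 2055 and 2549 in ICAM-1 KO, and Cma1, Cpa3 and Tpsb2 the most abundant. Lung neuroendocrine cells also make serotonin: Chga, Resp18 and Scg2 had no row, and all 3 that were tested (Calca, Pcsk1 and Uchl1) were lower, with sums of 1151 and 1249 in WT and 844.9 and 657.1 in ICAM-1 KO.

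All 13 endothelial genes were higher (sums of 198.5 and 212.2 in WT, 532.3 and 554.6 in ICAM-1 KO, Pecam1, Ramp2 and Vwf the most abundant), as were 7 of 13 T cell genes (835.6 and 1114, then 1466 and 1714), 5 of 8 B cell genes (181.3 and 166.3, then 350.9 and 287) and 5 of 11 epithelial genes (443.4 and 201.6, then 558.9 and 1400). None of these 4 lists had a called gene that was lower, and the shares over all genes tested were 8.8% higher and 4.97% lower. The most abundant T cell genes were Ctla4 and Ccr7, neither called, and Trac, which was higher. The most abundant B cell genes, Ms4a1, Cd79b and Cd79a, were all higher. Among the epithelial genes Scgb1a1 was the most abundant and was not called (log2 fold change 0.43, adjusted p = 0.651), while Sftpc and Sftpa1, the next, were higher. The part of these cell types in the difference of Sat1, which many cell types express, or in that of Arg1 and Srm, was not tested. Within each library, these genes were also set, per length, against ILC2 markers, a measure chosen after the values were seen. Against the sum of all 16 ILC2 markers in the table, Arg1 stood at 0.261 and 0.219 in WT and at 0.204 and 0.168 in ICAM-1 KO, Srm at 0.0437 and 0.0392, then 0.032 and 0.0316, and Sat1 at 0.0103 and 0.0101, then 0.0175 and 0.0163. This sum holds Id2, Il2ra, Il5 and Il13, which were themselves lower, with log2 fold changes of -0.56, -0.51, -0.76 and -1.45. Against Gata3, Rora and Il1rl1 alone, which were not called, the gap was wider for Arg1 (2.71 and 2.48 in WT, 1.81 and 1.46 in ICAM-1 KO) and Srm (0.456 and 0.444, then 0.284 and 0.275) and narrower for Sat1 (0.107 and 0.115, then 0.155 and 0.142). The size of each gap thus depends on the markers taken. The ratios of Tph1 overlapped with either set. Those of Odc1 were higher in both ICAM-1 KO libraries with either set, at 0.0861 and 0.0812, then 0.112 and 0.109, against all 16. Against Gata3, Rora and Il1rl1 the gap was narrower, at 0.897 and 0.92 in WT and 0.995 and 0.946 in ICAM-1 KO.

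**Figure D5:**
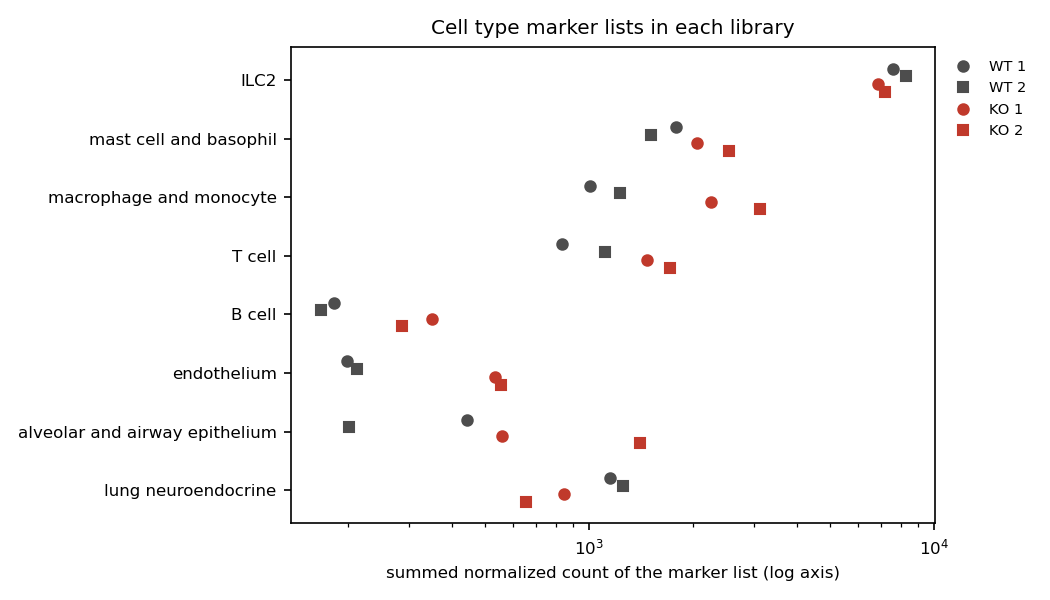
Summed normalized counts (horizontal log axis) of 8 cell type marker lists in the 2 WT (grey) and 2 ICAM-1 KO (red) libraries. The ILC2 sum, between 6880 and 8280, was the largest in each library, and the macrophage, mast cell, T cell, B cell, endothelial and epithelial sums were higher in both ICAM-1 KO libraries than in either WT library.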

How the data were processed

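Cells were sorted as lineage-negative CD45+ ST2+ CD127+ lung ILC2s, and cDNA was made from the RNA of each pool, per the study's methods. The authors demultiplexed the reads with CASAVA 1.8.2 and aligned them to mm10 with STAR (version 3.5.3 in the submitters' processing notes). The paper's methods name a different STAR version. Counts were estimated in Partek by expectation maximization with GENCODE M20. The deposited expected counts, of which 58.8% were whole (tolerance 0.005), were rounded to whole numbers. The deposited normalized signal is the count plus 1 times 1 upper quartile factor per library, and it was used for per-library values and for the filter. All value columns were mapped to a sample.

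Genes whose normalized counts averaged 1 or more and summed to 10 or more were tested with edgeR 4.0.16 in R 4.3.3 (quasi-likelihood, upper quartile factors, Benjamini-Hochberg adjustment), called at an adjusted p under 0.05 and tested on simulated data. Alternatives were TMM factors, DESeq2 1.42.0, limma 3.58.1 on log2(normalized count + 1), the legacy edgeR test, 3 other filters, each library left out and a replicate block. Levels per length (RPKM) used the union of exons in GENCODE M21, matched for 22352 genes, and upper quartile factors.

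The genes, lists and tests were chosen with earlier results of these data known. Named were all 9 genes and Icam1, of each related list the called genes (up to 8) and the 3 most abundant others, of each marker list the 3 most abundant and any at 0, and for Arg1, Tph1 and Odc1 the 3 nearest profiles. Other named genes (Arg2's overlapping gene, copies, Nos2, Tph2, Ddc, Dhps, Dohh, Smox, Eif5a2 and the other markers) were added after their values were seen. A few genes that these rules name are not reported here.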

Additional observations from a re-analysis of the deposited data

How the results depend on the processing

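TMM factors and the legacy edgeR test changed no call of the 8 tested genes. With limma 0 were called higher and 0 lower, with log2 fold changes of -0.67 for Arg1 (adjusted p = 0.0771), -0.68 for Srm (0.058) and 0.41 for Sat1 (0.131). Without a filter on low counts 0 were higher (Sat1 0.40, adjusted p = 0.0956), and with at least 10 counts in every library 2 were, Sat1 and Arg2. Leaving out 1 library gave 0 higher each time (Sat1 0.38 to 0.51) and 2 lower, and moved Tph1 between -0.47 and 0.09, the latter, reversed, without WT replicate 1. Of the related lists 7 genes were higher and 10 lower in all. The higher count was 11 with DESeq2, 1 with limma, 1 without a filter, 3 with filterByExpr and 3 to 7 with 1 library left out. The lower count was 1 with limma, 3 without a filter and 3 to 7 with 1 library left out.

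Over all genes 1030 were higher and 582 lower. Counts differing by over 1.5 times in at least 1 direction came from DESeq2 (930 lower), limma (356 and 53), no filter (334 and 201), and the fits without WT replicate 1 (479 and 208), WT replicate 2 (523 and 158) and ICAM-1 KO replicate 1 (357 lower). In these fits the lone library was assumed to vary like the other group.

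Libraries with the same replicate number did not deviate together (correlation of deviations -0.0293), so no pairing by number was seen. With 2 libraries per group this correlation cannot exclude pairing, because libraries of the other number give its mirror value, 0.0293. With a replicate block 1077 genes were higher and 638 lower, of the 8 genes 1 and 2 were, and of the related lists 9 and 11. With 2 pools per group, the spread limits the precision: an interval such as that of Tph1 leaves both directions possible. The causes of these changes were not tested.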
